A study of Mus musculus with 14 samples.

Results

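The 7 genes Axin2, Nkd1, Znrf3, Rnf43, Notum, Dkk1 and Lgr5 belong to the feedback circuit of canonical Wnt signalling, and the chromatin bound by p300, RXRα, Sp5 and Zeb2 around them was examined. They are 7 of the 21887 protein-coding genes of the RefSeq annotation of the mouse build GRCm38. A region is a place where peaks of both replicate libraries of a group overlap, and it was given to the protein-coding gene with the nearest end, if that end lay within 100 kb of the region's strongest summit. By this rule the 7 genes held 128 of the 132214 regions of all groups. The choice used gene names and positions and no peak height, but it was made with earlier results of these data known.

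Canonical Wnt signalling stabilises β-catenin, which joins TCF/LEF factors on DNA and activates target genes. Several of these targets encode proteins that turn the signal down again. In the mouse embryo the pathway drives the primitive streak and tail bud, and a pulse of Wnt activation is what lets aggregates of embryonic stem cells elongate into gastruloids. Axin2 and Nkd1 act inside the cell, Znrf3 and Rnf43 remove Wnt receptors from its surface, and Notum and Dkk1 are secreted. Lgr5, a receptor for R-spondins, is a feedback target too, but it works against Znrf3 and Rnf43 and is not itself an inhibitor.

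Chromatin immunoprecipitation with sequencing was done on undifferentiated mouse embryonic stem cells (mESCs) and on 120 h gastruloids, with 12 immunoprecipitations in 6 groups of 2 replicates and 1 input per cell type. All libraries came from the E14_triple reporter line. p300, a histone acetyltransferase and coactivator found at active enhancers and promoters, carried an endogenous p300-V5-miniTurboID tag and was pulled down with a V5 antibody; both inputs came from that line. RXRα, the nuclear receptor that pairs with retinoic acid receptors, Sp5, an Sp-family factor that is itself a Wnt target, and Zeb2, an E-box-binding repressor, were each tagged at their own gene with HA and the FKBP12F36V degron and pulled down with HA antibodies. p300 and RXRα were profiled in both cell types, Sp5 and Zeb2 in gastruloids. The mESCs grew in serum with leukemia inhibitory factor. Each gastruloid began as 300 sorted cells in NDiff227 medium, with 3 µM CHIR99021, a GSK3 inhibitor that activates Wnt signalling, added after 48 h. All gastruloid libraries thus came from cells that had been given a Wnt agonist and all mESC libraries from cells that had not, so the agonist and the change of cell state cannot be told apart. The labels do not say whether replicates were separate cultures. Gastruloids were profiled whole, so a weak region in every cell and a strong region in a few cells cannot be told apart.

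The lists differed in length, from 3111 peaks in the second RXRα gastruloid library to 75346 in the second p300 gastruloid library after removal of peaks found in an input. The cell type labels were checked against p300 at marker genes: 9 of 10 gastruloid markers had more regions found in gastruloids alone than in mESCs alone, and Sox1 had fewer. Over all genes with p300 regions of 1 cell type alone, 69.8% had more in gastruloids alone. The 9 of 10 is therefore a weak check by itself. Of 8 mESC markers 2 had more regions in gastruloids alone and 5 had fewer. Among the 7 Wnt feedback genes, the inputs had 1 peak each, both at Axin2 about 61 kb beyond the gene. That site was a peak in all 12 immunoprecipitation lists and was left out.

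In gastruloids the 7 genes carried 57 p300 regions, against 20 in mESCs. Every one of the 7 had a p300 region in both cell types, as 68.3% of all genes did in gastruloids and 49.3% in mESCs. Of the 57, 44 overlapped no peak of either mESC library and are called gastruloid-only; 9 were shared by all 4 libraries and 4 overlapped a peak of 1 mESC library. Of the 20 mESC regions 10 were mESC-only. Gastruloid-only regions therefore made up 81.5% of the regions of a single cell type at these genes, and 71.1% over all genes. The gastruloid p300 lists were the longer ones, and with all 4 cut to equal length the 7 genes had 25 gastruloid-only and 11 mESC-only regions. Among the 7 genes 6 had more gastruloid-only regions than mESC-only ones, and 69.8% of all genes with such regions did. At 3 of them, Axin2, Nkd1 and Dkk1, the mESC-only count was 0, and 50.9% of all genes with such regions had gastruloid-only regions alone. These counts lean the way the whole set of lists leans, so the direction is not particular to these genes. Their number of regions stood further from the rest. The median was 7 gastruloid p300 regions per gene, against 1 over all genes and 2 over genes with a region. Among the 7, 6 had at least 6, as 8.2% of all genes did, and that cut equals the count at Lgr5, the lowest of those 6. Strong regions were somewhat more frequent too: by the mean rank of the authors' −log10 q in both lists, 11 of the 57 (19.3%) were in the top 10%, against 12% of all regions given to a gene, and 7 (12.3%) were in the top 5%, against 6.04%. These are few regions, and the difference was not tested. The median fold of the 57 was 5.62 in the first gastruloid library, against 6.09 over all p300 regions. In the second it was 7.03 against 6.85, so typical height was not raised in both.

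Part of the high number of regions goes with the room around the genes. Counting only the stretch for which a gene's ends are the nearest within 100 kb, the 7 genes covered 917.682 kb and held 6.21 gastruloid p300 regions per 100 kb, against 2.50 for all genes. The density in mESCs was 2.18 against 1.48. Rnf43, with 10.7 regions per 100 kb, Axin2 with 7.43 and Znrf3 with 7.02 were the densest in gastruloids among the genes with more than 2 regions, and Lgr5 with 3.50 was the sparsest. Notum, with 2 regions in 16.02 kb, had 12.5 per 100 kb in each cell type, the highest of the 7.

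**Figure D1:**
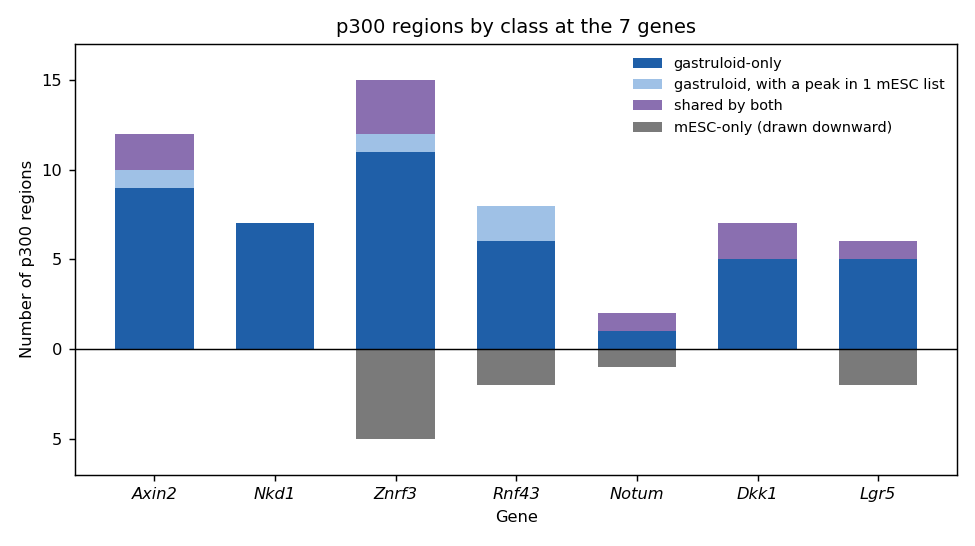
p300 regions at each of the 7 genes, stacked by class; bars above 0 count gastruloid regions and bars below 0 count mESC-only regions. Znrf3 has the tallest bars in both directions (15 gastruloid regions, 5 mESC-only), and Axin2, Nkd1 and Dkk1 have no mESC-only region.

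Of the intracellular inhibitors, Axin2, a scaffold of the complex that degrades β-catenin, lies at chr11:108917828-108950783. It had 9 gastruloid-only p300 regions, 0 mESC-only and 2 shared, and its p300 peaks numbered 4 and 2 in the mESC lists against 14 and 17 in the gastruloid lists. The strongest lay at chr11:109000198-109000809, 49.7 kb beyond the higher-coordinate end. Its fold enrichment, the authors' ratio of signal to local background at the summit, was 14.7 and 16.5 in the gastruloid replicates, with no peak in either mESC list. This rested on 93 and 91 fragments at the summit over local backgrounds of 5.39 and 4.57. No Sp5 or RXRα peak overlapped it, and Zeb2 had a peak there in the first library alone. The distal stretch beyond the gene held 5 of the 12 gastruloid p300 regions, and another 5 lay 6740 to 24623 bp before the lower end.

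Nkd1, which binds Dishevelled and dampens the signal upstream of β-catenin, lies at chr8:88521342-88594887. All 7 of its gastruloid p300 regions were gastruloid-only, and its 1 mESC region, 53372 bp before the gene, overlapped a peak in 1 gastruloid list. It held the strongest gastruloid p300 region of the 7 genes, at chr8:88454032-88454774, which ranked 618 of 53025 by mean rank. Folds there were 14.2 and 17.04, with 221 and 202 fragments at the summit. A second strong region 25970 bp before the gene (chr8:88495149-88495739) had folds of 16.3 and 20.2. Neither site had a peak in either mESC p300 list. Sp5 was found at both sites, and Zeb2 in both replicates at the second.

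The receptor-directed ligase gene Znrf3, whose product marks Frizzled receptors for removal, lies at chr11:5276329-5444847 and is the longest of the 7. It had 15 gastruloid p300 regions, 11 of them gastruloid-only, and 8 mESC regions, 5 of them mESC-only. As many gastruloid regions or more were found at 0.416% of genes, and as many mESC regions or more at 1.57%. Its strongest gastruloid region lay inside the gene at chr11:5390875-5391771. This one was shared, with folds of 6.30 and 5.56 in mESCs and 11.5 and 16.3 in gastruloids. The folds of the 2 cell types did not overlap, and those of gastruloids were higher, but they belong to different summits. The mESC region (chr11:5390819-5391216) had its summit at 5391108. The gastruloid summit, at 5391446, lay beyond the end of that mESC region.

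Rnf43 encodes the sister ligase of Znrf3 and lies at chr11:87663087-87735539. All 8 of its gastruloid p300 regions were inside the gene; 6 were gastruloid-only and 2 overlapped a peak in 1 mESC list. Its 2 mESC regions, at 27.5 and 43.6 kb from the lower end, were both mESC-only. The strongest gastruloid region (chr11:87689464-87690132) had folds of 8.20 and 9.84 and lay within 1 kb of the mESC-only region at 27.5 kb, which had folds of 9.06 and 5.83 in mESCs. The 2 intervals did not overlap, so this part of Rnf43 was occupied in both cell types at neighbouring positions. No region was shared at Rnf43.

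Lgr5 lies at chr10:115450314-115587780 and had 5 gastruloid-only, 2 mESC-only and 1 shared p300 region. The shared one, inside the gene at chr10:115469015-115469529, was its strongest in both cell types, with folds of 24.3 and 19.9 in mESCs and 15.6 and 16.8 in gastruloids. Both mESC-only regions lay far beyond the higher-coordinate end, at 75.4 and 88.9 kb, while the gastruloid-only ones were inside the gene or at most 3754 bp from it. Lgr5 was the gene whose direction depended on list length: with all p300 lists cut to the length of the shortest it had 1 gastruloid-only and 2 mESC-only regions.

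Of the secreted inhibitors, Dkk1, which blocks the Lrp5 and Lrp6 co-receptors, lies at chr19:30545876-30549496. It had 5 gastruloid-only regions, 2 shared and 0 mESC-only. A gastruloid-only region 83930 bp beyond the lower-coordinate end (chr19:30461592-30462329) had folds of 18.1 and 18.1, the highest in the first gastruloid library among all 57. A shared region 40227 bp beyond the same end had 16.8 and 13.04 in mESCs and 17.2 and 16.96 in gastruloids. No Sp5, Zeb2 or RXRα peak of any single library overlapped the first of these regions.

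Notum encodes the secreted enzyme that removes the lipid from Wnt proteins. It lies in a crowded stretch at chr11:120653788-120661193, where the nearest-end territory was 16.02 kb, and it was the exception in number: 1 gastruloid-only, 1 mESC-only and 1 shared p300 region. The shared region lay 2.7 kb beyond the higher-coordinate end (chr11:120663606-120664121). Its folds of 20.8 and 19.2 in mESCs stood above those of 10.8 and 10.7 in gastruloids. The mESC-only region was 957 bp beyond the lower end and the gastruloid-only one 284 bp inside the higher end.

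**Figure D2:**
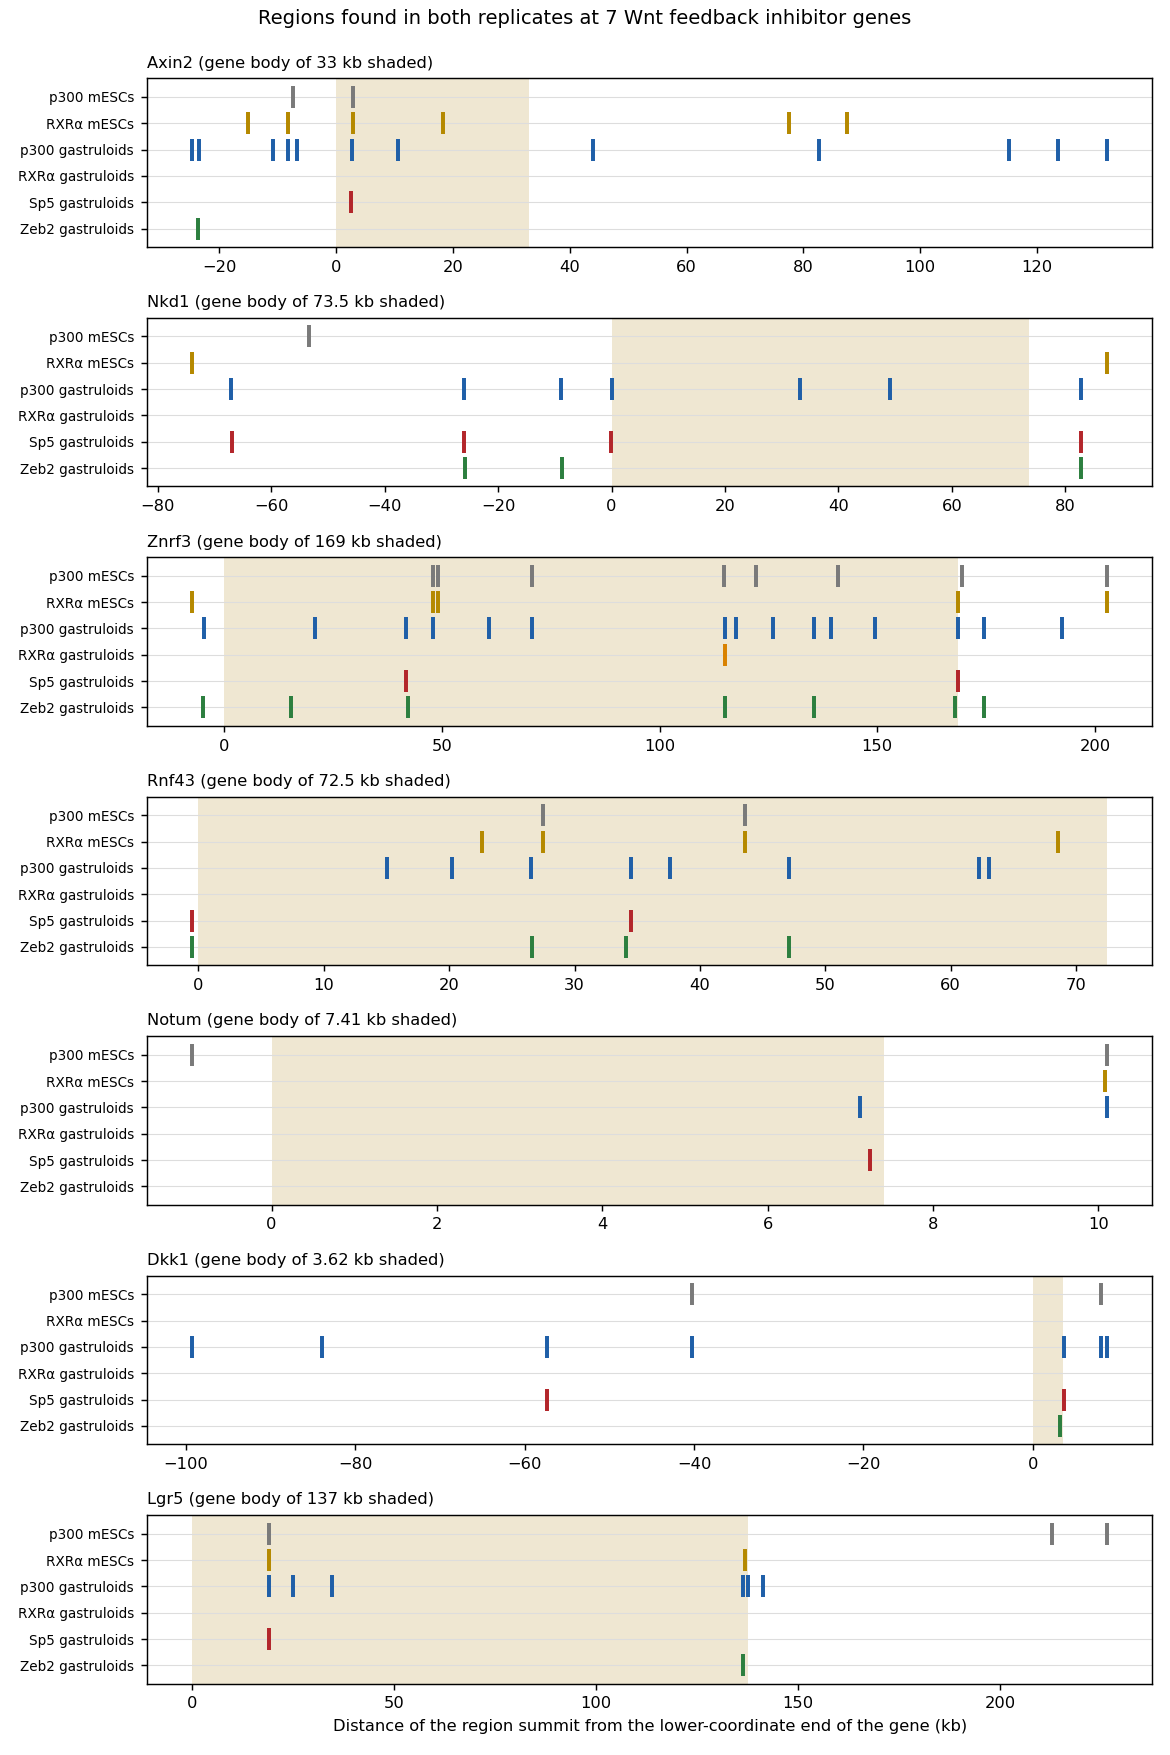
Summits of the regions found in both replicates of each group, 1 row per group, placed by distance in kb from the lower-coordinate end of each gene, whose body is shaded. p300 in gastruloids has the most marks at Axin2, Nkd1, Znrf3, Rnf43, Dkk1 and Lgr5, Notum has 2 in each cell type, and the RXRα gastruloid row has 1 mark, in Znrf3.

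Heights at the 9 shared regions went both ways. The 2 mESC folds and the 2 gastruloid folds did not overlap at any of the 9. They were higher in mESCs at 6, where 50.1% of all shared regions were, and higher in gastruloids at 3, where 27.3% were, and with 9 regions these shares cannot be set apart from those of all shared regions. The 6 were the regions of Notum and Lgr5, 1 of 2 at Axin2, 1 of 2 at Dkk1 and 2 of 3 at Znrf3. The widest gap was at Dkk1, 4.4 kb beyond the higher-coordinate end (chr19:30553784-30554162), with 19.4 and 19.1 in mESCs and 6.97 and 7.03 in gastruloids. Each list was made from its own library, so these folds compare heights between cell types only roughly. A fold belongs to the summit of its own list, and summits could lie apart, as in the strongest gastruloid region of Znrf3. Before the lower end of Axin2 they lay at 108910504 in mESCs and 108911088 in gastruloids. A gene could hold both directions: in Znrf3 the regions at 48.0 and 70.7 kb from the lower end were higher in mESCs and the one at 115.1 kb was higher in gastruloids.

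**Figure D3:**
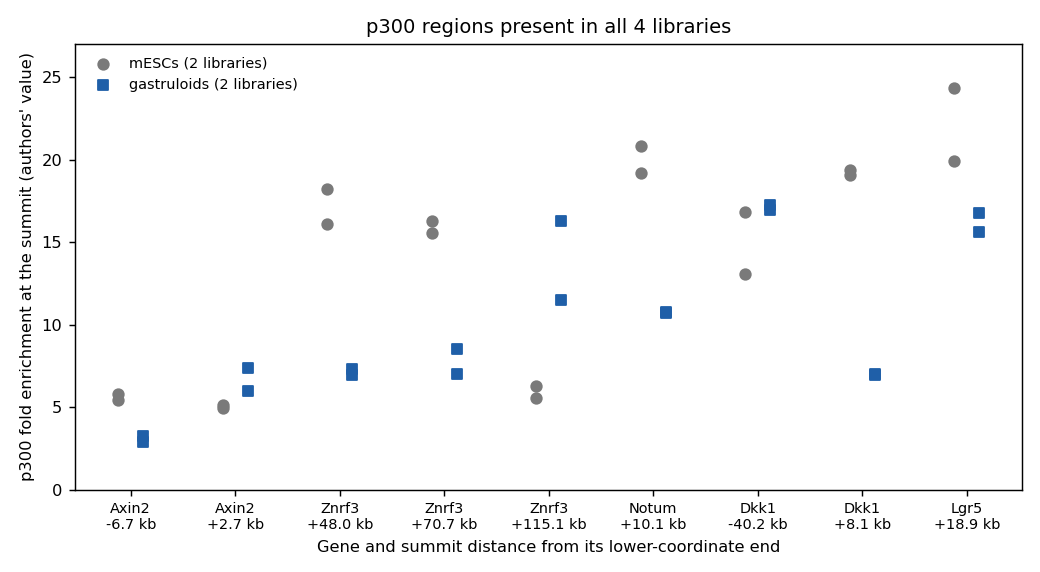
Authors' p300 fold enrichment at the 9 regions shared by all 4 p300 libraries, 1 point per library, by gene and summit distance from its lower-coordinate end. mESC points lie above gastruloid points at 6 regions and below them at Axin2 +2.7 kb, Znrf3 +115.1 kb and Dkk1 −40.2 kb.

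p300 at these genes was mostly away from gene ends. Of the 57 gastruloid regions 5 had a summit within 1 kb of an end of the gene, against 22.5% of all gastruloid regions given to a gene, with 27 inside genes and 25 outside. Those 5, 1 each at Nkd1, Znrf3, Notum, Dkk1 and Lgr5, were all gastruloid-only. At Znrf3 the summit lay 9 bp inside the higher-coordinate end, with folds of 7.25 and 10.96, on 87 and 110 fragments, and no mESC p300 peak overlapped it. An mESC-only region lay 1053 bp beyond that end with folds of 10.02 and 9.74. The gastruloid region (chr11:5444142-5445269) spanned the end of Znrf3, and the mESC-only region (chr11:5445725-5446136) lay wholly beyond it without touching the other.

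Sp5 was present at every one of the 7 genes, while 39.9% of all genes had an Sp5 region. With a −log10 q of at least 5, or with lists of equal length, 5 of the 7 had one. It had 13 regions there, 12 of them at a gastruloid p300 region; the share was 84.9% over all Sp5 regions given to a gene. From the side of p300, 12 of 57 regions carried Sp5, a share of 21.1% against 20.9% over all genes, so p300 regions of these genes held Sp5 about as often as any. Sp5 density was 1.42 regions per 100 kb against 0.623 for all genes. Nkd1 had 4 Sp5 regions, Znrf3, Rnf43 and Dkk1 had 2 each, and Axin2, Notum and Lgr5 had 1 each.

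The strongest Sp5 region was at the higher-coordinate end of Znrf3 (chr11:5444718-5445469), with folds of 17.4 and 10.4 and 157 and 111 fragments at the summit. It ranked 166 of 10953. The one at Axin2 (chr11:108920073-108921592) followed, with 15.7 and 8.80 and rank 388. The next, inside Rnf43 at 34.5 kb, had 17.4 and 9.91 and rank 679. At the other end, Notum (3.80 and 3.96) and Lgr5 (5.72 and 4.60) had Sp5 regions that ranked 9897 and 10042. Only 5 of the 13 lay within 1 kb of a gene end, against 64.6% of all Sp5 regions given to a gene. At Nkd1 all 4 Sp5 regions coincided with gastruloid-only p300 regions, 66825 and 25961 bp before the gene, at its lower end and 9301 bp beyond it.

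**Figure D4:**
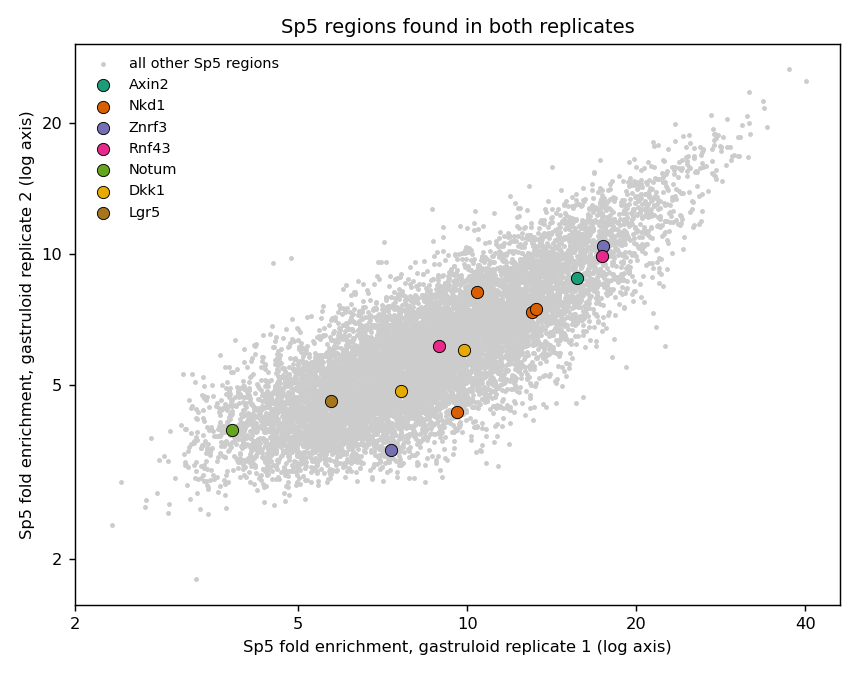
Sp5 fold enrichment in gastruloid replicate 1 against replicate 2, both on log axes, for all Sp5 regions (grey) and the 13 of the 7 genes (coloured). Znrf3, Rnf43 and Axin2 have points towards the upper right, and Notum and Lgr5 towards the lower left.

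Promoter sequences were at hand for 4 of the 7 genes, Axin2, Dkk1, Rnf43 and Nkd1, from RefSeq on GRCm38.p6. The 250 bases before the start are shown for Axin2 and Dkk1, since those are the promoters in which a p300 or Sp5 summit lay. Capitals mark matches on either strand to the 5 short motifs searched. These were CTTTGA (the TCF/LEF core), GGGCGG and GGGTGG (GC and GT boxes of Sp factors), CACCTG (the Zeb E2-box) and AGGTCA (a nuclear receptor half-site). Of all 32851 such windows, 13.8%, 32.7%, 28.1%, 17.2% and 14% held at least 1 match to each. The Axin2 window is chr11:108920099-108920348 on the plus strand, and the Dkk1 window is chr19:30549497-30549746 on the minus strand, both written 5′ to 3′ up to the base before the start.
Axin2: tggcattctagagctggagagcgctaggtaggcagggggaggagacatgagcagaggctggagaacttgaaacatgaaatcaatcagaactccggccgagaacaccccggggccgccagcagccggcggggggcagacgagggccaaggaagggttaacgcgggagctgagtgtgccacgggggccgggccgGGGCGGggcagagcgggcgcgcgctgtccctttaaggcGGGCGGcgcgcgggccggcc
Dkk1: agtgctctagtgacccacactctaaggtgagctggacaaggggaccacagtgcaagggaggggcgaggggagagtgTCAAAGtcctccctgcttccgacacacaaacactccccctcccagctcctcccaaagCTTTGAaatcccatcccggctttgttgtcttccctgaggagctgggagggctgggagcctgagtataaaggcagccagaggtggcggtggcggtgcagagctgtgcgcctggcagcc

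The Axin2 window was 69.2% G and C, against a median of 52.4% over all windows, and its capitals are 2 GC boxes, with no match to the other 4 motifs. The Sp5 summit fell on the same base in both replicates, chr11 position 108920292, 57 bases before the start. That base is in the first of the 2 GC boxes, which spans 58 to 53 bases before the start. The p300 region shared by mESCs and gastruloids reached into the same window, with its summits past the start. They lay at positions 108920539 and 108920849 in the gastruloid replicates, with folds of 7.35 and 5.95, against 4.97 and 5.12 in mESCs. Peaks of both gastruloid libraries overlapped the window, and in mESCs the peak of the first library alone did, at its edge from position 108920308. This start lies inside the span of the Axin2 gene record, so the region counts as inside the gene and not at a gene end.

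The Dkk1 window had 60.8% G and C, and its capitals are 2 TCF/LEF cores, at 174 to 169 bases before the start on the opposite strand and at 117 to 112 on the gene's own strand. p300 summits lay 113 and 129 bases before the start in the gastruloid replicates and Sp5 summits 123 and 85, although the window has no GC or GT box by these letters. The p300 folds there were low, 3.75 and 4.22, on 25 and 21 fragments, and those of Sp5 were 7.62 and 4.85. Zeb2 peaks overlapped the window in both replicates and no p300 peak of mESCs did. A match of letters describes the window and does not show a bound site.

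In the Rnf43 window before the lower-coordinate end, and in one before an internal start, no motif matched. An Sp5 region (folds of 8.90 and 6.17) and a Zeb2 region (11.7 and 7.05) reached into the first, with summits 479 and 483 bases before the start and so outside the window. The window itself was touched by the Sp5 peak of the second replicate alone and the Zeb2 peak of the first alone. p300 had a peak over it in the first gastruloid library alone, at a fold of 3.16, so this is the Sp5 region of the 13 without a p300 region. The Nkd1 entry is for an internal start that no region covered.

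Zeb2 had 17 regions at 6 of the 7 genes, all but Notum, while 33% of all genes had a Zeb2 region. Znrf3 held 7, Rnf43 4, Nkd1 3, and Axin2, Dkk1 and Lgr5 1 each. Zeb2 regions overlapped 17 of the 57 gastruloid p300 regions, 29.8% against 17.1% over all genes. With the first Zeb2 library alone the share was 57.9% against 45.2%, and with the second alone 29.8% against 17.04%. The count of p300 regions with Zeb2 rises to 33 without the second, shorter library, and falls to 7 when peaks need a −log10 q of at least 5. With lists of equal length it was 7 too. The share over all genes was not counted at that q or at equal length, so whether the difference holds there is not known. Of the 17 Zeb2 regions 15 were at p300, a share of 88.2% against 78.1%.

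The strongest Zeb2 region of the set lay inside Znrf3 at chr11:5391258-5391645, on the region where p300 was highest in that gene. Its folds were 16.3 and 14.4, on 84 and 41 fragments, and no Sp5 peak overlapped it. Other Zeb2 regions ranged from 3.52 to 11.7 in fold. Sp5 and Zeb2 met at 6 of the 57 p300 regions, 10.5% against 9.69% over all genes: 2 at Nkd1, 2 at Znrf3 and 1 each at Rnf43 and Dkk1. All 6 were gastruloid-only. The 34 p300 regions free of any Sp5, Zeb2 or RXRα region included the strongest of Axin2 and Dkk1.

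At the 5 gene-end p300 regions the factors were denser than elsewhere in the set. Sp5 was at 4 of the 5, against 63.3% of all gene-end p300 regions, and Zeb2 at 3 of the 5, against 41.6%. The end of Znrf3 and that of Dkk1 had both, Nkd1 and Notum had Sp5 alone and Lgr5 Zeb2 alone. With 5 regions these shares cannot be set apart from those of all genes.

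RXRα had more regions in mESCs than in gastruloids, where its second list, of 3111 peaks, was the shortest of all immunoprecipitations. In mESCs 20 regions lay at 6 of the 7 genes, against 49.4% of all genes with a region, and none lay at Dkk1. Of these, 16 were mESC-only, against 63.5% of all mESC RXRα regions given to a gene, and 0 were shared, against 6.62%. A peak of the first gastruloid list overlapped 4 of the 20, against 36.2%, and a peak of the second overlapped 0, against 6.8%. With all RXRα lists cut to the length of the shortest, 1 region was mESC-only and 1 was gastruloid-only, so the excess in mESCs was not seen at equal length. mESC p300 was at 8 of the 20, against 42.4%. Axin2 had 6 RXRα regions, Znrf3 5, Rnf43 4, Nkd1 and Lgr5 2 each and Notum 1. The strongest lay 34.2 kb beyond the higher-coordinate end of Znrf3 (chr11:5478521-5479544), with folds of 15.1 and 15.0 on 364 and 327 fragments. It overlapped an mESC-only p300 region of low height, 3.88 and 4.49.

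In gastruloids RXRα had 1 region at the 7 genes, in Znrf3 at chr11:5391303-5391591, with folds of 15.2 and 7.31; 8.73% of all genes had one. It was at 1 of the 57 p300 regions, against 4.28% over all genes. No mESC RXRα peak overlapped it, and it fell on the same p300 region as the strongest Zeb2 region, with summits of RXRα at 5391467, Zeb2 at 5391473 and p300 at 5391446. This is the place in the 7 genes where p300, RXRα and Zeb2 coincided. The single count rests on the short second gastruloid list. The first list had 28 peaks at the 7 genes and the second had 2, of which the Znrf3 one was in both. Without the second gastruloid library 22 regions were gastruloid-only and 5 shared, and all 7 genes had an RXRα region. Without the second mESC library 29 regions were mESC-only. How many sites RXRα held in gastruloids at these genes is therefore not settled by these lists.

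**Figure D5:**
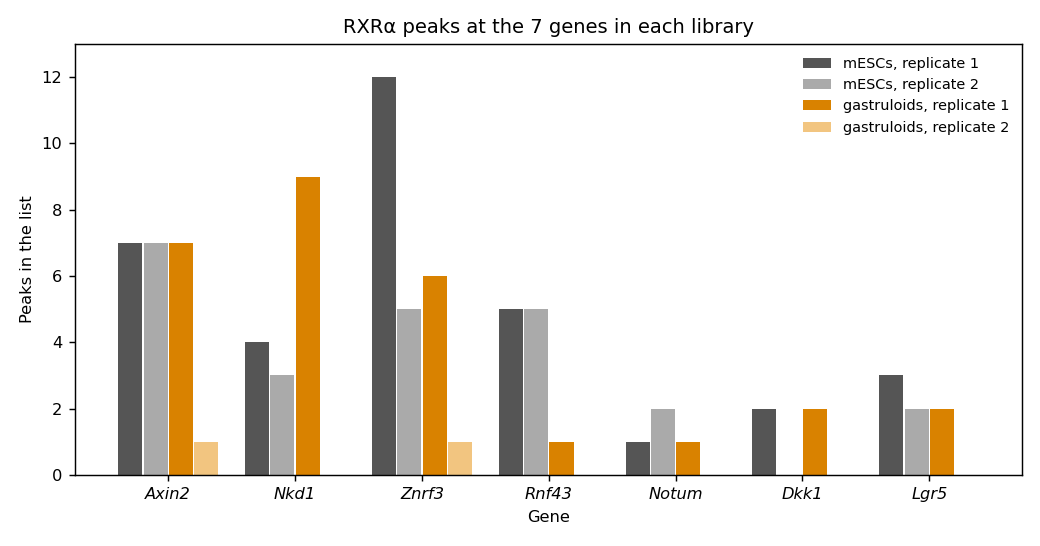
Number of RXRα peaks at each of the 7 genes in each of the 4 libraries, after removal of input peaks. The first gastruloid library has between 1 (Rnf43, Notum) and 9 (Nkd1) peaks, and the second has 1 at Axin2, 1 at Znrf3 and none at the other 5 genes.

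Other genes of the pathway leaned the same way, as the lists as a whole do, mostly in smaller numbers. Of 40 genes listed by role, 35 had p300 regions of a single cell type; 26 had more gastruloid-only regions, 7 equal numbers and 2, Dkk3 and Csnk1a1, fewer. Their share of gastruloid-only regions was 71.2%, against 71.1% over all genes and 81.5% at the 7 feedback genes. Their median was 3 gastruloid p300 regions per gene against 7, with the room around the 40 genes not counted. Among the membrane and cytoplasmic inhibitors, though, Dact1 had 16 and Tnfrsf19 15, against 15 at Znrf3. The 9 genes of that role together held 57 gastruloid p300 regions, 44 of them gastruloid-only, the same totals as the 7 feedback genes. By role, more gastruloid-only regions were found at 5 of 9 secreted inhibitors, 7 of 8 membrane and cytoplasmic inhibitors, 7 of 9 receptors and agonists and 7 of 9 members of the destruction complex and effectors. Over all genes with such regions 69.8% had more gastruloid-only ones, so the direction is not particular to the pathway. Each of the 7 genes held Sp5, as 29 of the 40 others did, and 6 held Zeb2, as 17 of the 40 did. With a −log10 q of at least 5 these counts fell to 5 of 7 for Sp5 and 4 of 7 for Zeb2; the 40 were not recounted at that threshold.

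In gastruloids paralogs had fewer p300 regions than the feedback genes they resemble, with Lgr4, another R-spondin receptor gene, level with Lgr5 at 6. The room around the paralogs was not counted, so these numbers take no account of it. In mESCs the paralogs went both ways. Dkk2 had 6 and Dkk3 2 against 2 at Dkk1, and Lgr4 had 5 against 3 at Lgr5. Axin1, Nkd2, Dkk4 and Lgr6 had 0, against 2 at Axin2, 1 at Nkd1, 2 at Dkk1 and 3 at Lgr5. Axin1, which is not induced by Wnt, had 2 gastruloid-only regions and no other, against 9 at Axin2. Nkd2 had 4, against 7 at Nkd1. Dkk4 had 2, Dkk2 had 4 with 4 mESC-only, and Dkk3 had 0 with 2 mESC-only, against 5 and 0 at Dkk1. Lgr4 had 3 shared regions beside 3 gastruloid-only and 1 mESC-only, and Lgr6 had 1 gastruloid-only. Among the 40, the numbers of p300 regions in gastruloids only, in mESCs only and in both lay nearest to the medians of the 7 genes (6, 1 and 1) at Wls (6, 1 and 0), the carrier that brings Wnt proteins to the cell surface. Next came Ctnnb1, the gene of β-catenin itself (5, 2 and 1), Frzb, a secreted Wnt antagonist (7, 1 and 0), Kremen1, a receptor for Dkk1 (4, 1 and 1), and Apcdd1, a membrane inhibitor (4, 1 and 0).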

How the data were processed

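Peak lists of 14 libraries were used, 1 list per library and not pooled. MACS2 2.2.7, BWA 2.2.1 and fastp 0.20.1 are named in the submitters' processing notes, with the build GRCm38.p6 (mm10); what each did, and whether an input served as control, is not given in the sources used here. The authors deposited for each peak its summit position, a score, a −log10 q, a −log10 p and a fold enrichment, which is a ratio to local background. Each list was made from its library alone, so values are set side by side between lists only as a description. Reads and coverage were not analysed here.

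Peaks on 21 chromosomes that overlapped no input peak were kept (Python 3.11.15, pandas 2.3.3). Replicates had to overlap by at least 1 bp. The fold and −log10 p together give the fragments at a summit, which came out whole within 0.01 for every peak checked in each list. Library depth is unknown, and a summit of 13 to 32 fragments, the range of the medians of the lists, limits what 1 list can show. The gene table gives no strand, so ends are named by coordinate. By choice no test was made: peak lists hold no counts over common features, and regions of 1 gene are not replicates. Shares over all genes stand beside the main counts instead. Most counts under the alternatives named below were made at the 7 genes alone and have no such share. The code was tested on simulated data. All 7 genes are named, with the strongest region of each group; the 5 genes most alike were taken by the summed difference in p300 counts. The genes and lists were chosen with earlier results of these data known. Alternatives were a stricter q, equal list lengths, a larger overlap, input peaks kept, 20 and 500 kb, either replicate, and each replicate left out.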

Additional observations from a re-analysis of the deposited data

How the results depend on the processing

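The 6 genes with more gastruloid-only than mESC-only p300 regions stayed at 5 to 6 under each alternative. Assignment within 20 kb gave 18 gastruloid-only, 2 mESC-only and 5 shared p300 regions, 0 gastruloid-only and 8 mESC-only RXRα regions, 7 p300 regions with Sp5, 8 with Zeb2, 0 with RXRα and 0 genes with RXRα. Counting a region in either replicate gave 67, 17 and 15 for p300, 23, 32 and 6 for RXRα, 38 p300 regions with Zeb2, 18 with RXRα and 7 genes with RXRα. Lists of equal length gave 25 gastruloid-only p300 regions, 1 mESC-only RXRα region, 5 p300 regions with Sp5 and 7 with Zeb2; a −log10 q of at least 5 gave 7 with Zeb2. With input peaks kept, 1 RXRα region was shared, 2 p300 regions held RXRα and 2 genes had RXRα. Leaving out each replicate in turn gave ranges of 45 to 61 gastruloid-only, 10 to 15 mESC-only and 9 to 12 shared p300 regions. For RXRα they were 1 to 22, 16 to 29 and 0 to 5. p300 regions with Sp5 ranged from 12 to 15, with Zeb2 from 17 to 33 and with RXRα from 1 to 17; genes with RXRα ranged from 1 to 7, with Zeb2 from 6 to 7, and all 7 kept Sp5 in these. Genes with Sp5 were 5 at a −log10 q of at least 5 and at equal length, and genes with Zeb2 were 4 at that q. The cause of these shifts was not tested, beyond the shorter lists or distances that each alternative sets. Of the counts over all 7 genes, 109 kept within 1.5 times of their value and 34 did not; of the counts for single genes, 124 did and 30 did not. No paired analysis was possible because these results come from no test. Motifs in 100 bases around summits were not searched, since no genome was used here. Assignment by distance says nothing of which gene a region acts on.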

Other observations

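The strongest RXRα peak of any gastruloid list at the 7 genes lay 44608 bp beyond the higher-coordinate end of Axin2, and it was in the first library alone. There it had a fold of 31.2, a −log10 q of 358 and 323 fragments at the summit over a local background of 9.40, and it ranked 61 in its list. Of the 61 peaks of that list at least as strong, 59 were also in the second list and 2 were not; of the 100 strongest, 94 were. The same place was an RXRα region in mESCs, with folds of 5.66 and 6.20, and no p300 region of either cell type overlapped it. Why the second gastruloid library has no peak there was not tested.

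At the higher-coordinate end of Znrf3 too, the first gastruloid RXRα list had a peak, with a fold of 12.9 on 78 fragments, and the second had none. This peak stood 4.52% from the top of its list. How often peaks of that rank recur in the short second list was not counted. In mESCs RXRα had a region at that end with folds of 4.09 and 4.99, and Sp5, Zeb2 and gastruloid p300 were all present there.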
